A study of Mus musculus with 6 samples.

Results

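The subject is a set of 44 genes that drive or restrain the cell division cycle: cyclins, cyclin-dependent kinases (CDKs) and their inhibitors, CDC25 phosphatases, E2F transcription factors, pocket proteins and a few regulators linked to them. They were taken by gene symbol from a list that was drawn up with earlier results of these data known. All 44 were among the 14608 genes in the tables, and all 44 passed the filter on low levels that left 12233 genes to test. RNA came from regulatory T (Treg) cells, the Foxp3-expressing CD4 T cells that restrain immune responses, sorted from mouse spleen as CD4+YFP+ cells. There were 6 libraries from 3 genotypes, 2 libraries each: wild type (WT), with 1 copy of Cdc42 knocked out (Cdc42+/-) and with both copies knocked out (Cdc42-/-). Cdc42 encodes a small GTPase that organises the actin cytoskeleton and cell polarity. No treatment is given, and all 3 genotypes share the YFP sort. The labels do not say which promoter drives YFP, how or in which cells Cdc42 was deleted, or how old the mice were. The design text counts a pair of mice per genotype, and p-values measure the spread between these libraries.

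Cyclins activate CDKs, and each phase of the cycle has its own pairs. D cyclins with Cdk4 and Cdk6 respond to growth signals and begin to phosphorylate the pocket proteins Rb1, Rbl1 and Rbl2, which frees E2F factors to switch on E cyclins and replication genes. Cyclin A with Cdk2 and Cdk1 then carries cells through DNA synthesis, and B cyclins with Cdk1 drive mitosis once CDC25 phosphatases remove the inhibitory phosphates that Wee1 and Pkmyt1 place. In resting cells a pocket protein, E2f4 and the MuvB core bind cell cycle promoters as a repressor, and in dividing cells MuvB joins B-Myb (Mybl2) and Foxm1 to activate the mitotic genes. A part of the Treg pool in mouse spleen divides at any time, while resting T cells hold high p27 (Cdkn1b).

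Levels are given as RPKM, reads scaled to gene length and library depth, which allows levels of different genes to be compared. The libraries held between 8556576 and 17796100 reads in genes. Cdc42 itself was at 166 and 161 RPKM in WT, at 164 and 156 in Cdc42+/- and at 122 and 173 in Cdc42-/-. The 3 genotypes overlapped, and since the deleted part of the gene is not named, this level does not check the labels, which are used as given. Treg and CD4 markers (6 of 6 in the tables) summed to between 1110 and 1217 RPKM in the WT and Cdc42+/- libraries, and to 990 and 788 RPKM in Cdc42-/- replicates 1 and 2. Foxp3 was at 132 and 118 RPKM in WT, at 113 and 103 in Cdc42+/- and at 118.5 and 58.5 in Cdc42-/-. Il2ra was at 232 and 207 RPKM in WT, at 169 and 149 in Cdc42+/- and at 178 and 139.5 in Cdc42-/-. Cd3e, Cd4 and Ikzf2 were lower in both Cdc42-/- libraries than in all others. Ctla4 went the other way, at 201.5 and 200.8 RPKM in Cdc42-/- and at most 157 RPKM elsewhere.

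Markers of other cells were uneven, and Cdc42-/- replicate 2 stood apart. The sum of 7 myeloid markers was between 12.8 and 44.2 RPKM in 5 libraries and 1200 RPKM in Cdc42-/- replicate 2, where Lyz2 alone reached 600.2 RPKM. The 5 of 9 erythroid markers in the tables summed to between 0.566 and 1.34 RPKM in the WT and Cdc42+/- libraries, to 6.24 RPKM in Cdc42-/- replicate 1 and to 34.2 RPKM in replicate 2. The 4 plasma cell markers summed to 15.8 and 17.5 RPKM in WT, to 98.7 and 78.2 in Cdc42+/- and to 18.2 and 159 in Cdc42-/-. Jchain made up most of the sum in Cdc42+/-, at 89.0 and 69.2 RPKM against 10.1 and 9.17 RPKM in WT. In Cdc42-/- replicate 1 it was at 0.946 RPKM and Prdm1 at 15.2 RPKM, and Sdc1 overlapped between WT and Cdc42+/-. Summed B cell and CD8 T cell markers stayed at or under 18.9 and 10.6 RPKM in every library. Of 3 NK cell markers only Klrb1c had values in the tables used here, at or under 1.13 RPKM. Sex-linked genes also split the libraries: Xist was at 0.199 and 1.13 RPKM in WT, at 99.3 and 93.3 in Cdc42+/- and at 87.4 and 21.2 in Cdc42-/-. The Y-linked Ddx3y was at 37.7 and 42.4 RPKM in WT, at 0.126 and 0 in Cdc42+/- and at 0.0974 and 27.5 in Cdc42-/-. Sex and genotype cannot be told apart for WT against Cdc42+/-, nor for WT against Cdc42-/- without replicate 2. With replicate 2 in the fit, sex was still partly tied to genotype. That library held both Xist and Ddx3y, and replicate 1 held Xist with almost no Ddx3y. What gave replicate 2 both signals was not tested. The part of sex and of the other cell types in the values below was not tested either.

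**Figure D1:**
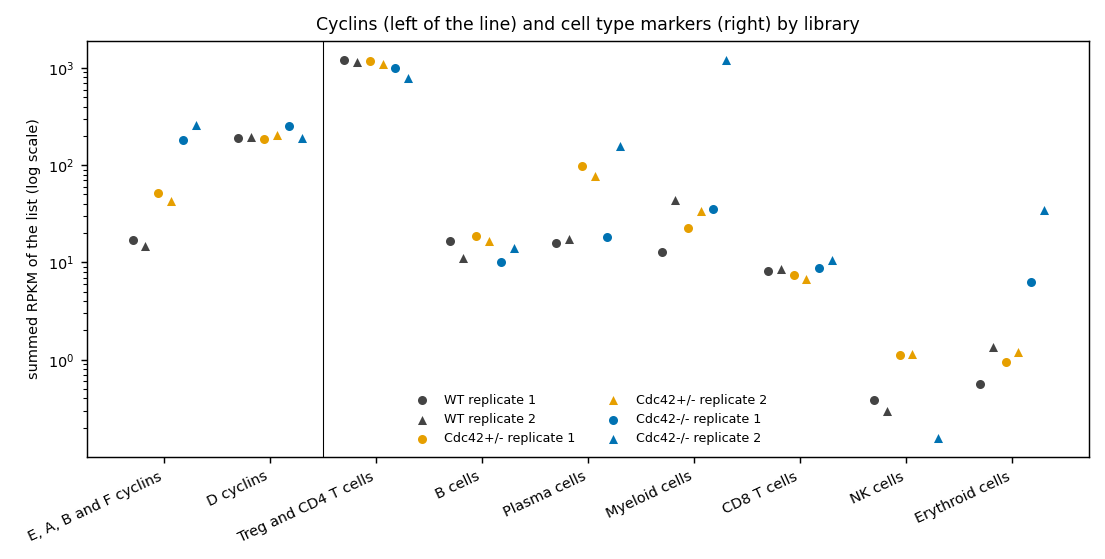
Summed RPKM on a log axis for 2 groups of cyclins (left of the line) and for markers of 7 cell types (right), 1 point per library; Cdc42-/- replicate 1 is at 0 for the NK marker and is not drawn there. The E, A, B and F cyclins were at 14.7 and 17.2 RPKM in WT and at 182 and 257 RPKM in Cdc42-/-, while myeloid markers were high in Cdc42-/- replicate 2 alone.

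In Cdc42-/- Treg libraries most of these regulators were higher than in WT, and 3 were lower. Ccna2, Ccnb1, E2f8, Ccnb2 and Cdk1 had the largest log2 fold changes among the members on the log2(RPKM + 1) scale. By the ratio of mean RPKM, E2f8 led at 39.7 times WT, with Ccna2 at 23.9 times. With limma on log2(RPKM + 1), a scale that understates the change of low genes, and p-values adjusted over all genes tested at a threshold of 0.05, 28 of 44 members rose (63.6%) and 3 fell (6.82%). Over all 12233 genes tested the shares were 6.86% higher and 4.57% lower. The median log2 fold change was 0.99 for the members and 0.01 for all genes. The 3 that fell were Btg1, Btg2 and Rbl2. Both Cdc42-/- libraries lay above both WT libraries for 32 members and below them for 5, where 28.9% and 27.1% of all genes did so. In bulk RNA, more dividing cells and more of these transcripts per cell cannot be told apart.

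**Figure D2:**
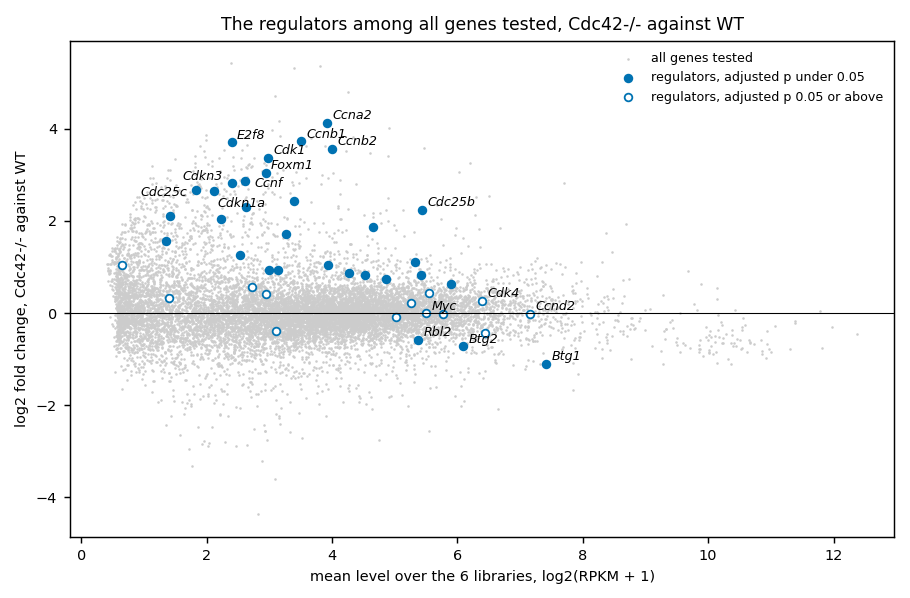
Log2 fold change of Cdc42-/- against WT (vertical) against mean level in log2(RPKM + 1) over the 6 libraries (horizontal) for every gene tested (grey) and the 44 regulators (blue; filled where the adjusted p was under 0.05). Ccna2 (4.14), Ccnb1 (3.73) and E2f8 (3.71) lie near the top, and Btg1 (-1.10) lies lowest of the regulators.

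The number of calls moved with the libraries fitted, for the members and for all genes. Without Cdc42-/- replicate 2 the same 31 members were called, while the calls over all genes went from 1398 to 2263, with member log2 fold changes of 3.85 for Ccna2, 3.05 for Cdk1 and -1.01 for Btg1. By Xist and Ddx3y the remaining Cdc42-/- library also differs in sex from both WT libraries, so sex and genotype cannot be told apart in that fit. Without WT replicate 1, and likewise without WT replicate 2, 14 members were called, 13 higher and 1 lower, beside 259 and 262 of all genes. These were the 14 that kept the call under all 14 alternatives tried: Ccna2, Ccnb1, Ccnb2, Ccne1, Ccnf, Cdk1, Cdkn1a, Cdkn3, Cdc25b, E2f2, E2f8, Mybl2, Foxm1 and Btg1. The other 17 each lost it under at least 1 alternative. Leaving out Cdc42-/- replicate 1 gave 37 members and 4433 genes, the members gained being Ccnd2, Cdk4, Cdkn1b, Cdkn2a, E2f3 and E2f4. Leaving out Cdc42+/- replicate 1 or replicate 2, which are not in this contrast but share its estimate of spread, gave 21 members each and 547 and 550 genes. When libraries were scaled to a common upper quartile, the members' split was 27 higher and 4 lower, while that of all genes went from 839 higher and 559 lower to 731 higher and 753 lower.

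Promoter sequence is shown for a few members called in Cdc42-/-, taken by smallest p, because the cell cycle factors in this set act through known short elements near the start site. RefSeq promoter windows of GRCm38.p6, from 250 bases before to 50 after an annotated start, matched 32 of 44 members. The first 4 windows below are those of the called members with the smallest p that hold an element. That of Cdk1 was added after its matches were seen, because it holds all 3 kinds. E2f2 has 2 annotated windows, and the one with more matches is shown. That window lies inside the gene, whose annotated span begins at chr4:136172274, so it surrounds an internal start. The other E2f2 window, not printed, holds an E2F match, and the one shown does not. Capitals mark matches, on either strand, to the cell cycle homology region bound by MuvB (TTTGAA or TTTAAA), an E2F site (TTTGGCGC, TTTCCCGC, TTTCGCGC or TTTGCCGC) or a CCAAT box (CCAAT).
Cdc25b, chr2:131186698-131186997, plus strand: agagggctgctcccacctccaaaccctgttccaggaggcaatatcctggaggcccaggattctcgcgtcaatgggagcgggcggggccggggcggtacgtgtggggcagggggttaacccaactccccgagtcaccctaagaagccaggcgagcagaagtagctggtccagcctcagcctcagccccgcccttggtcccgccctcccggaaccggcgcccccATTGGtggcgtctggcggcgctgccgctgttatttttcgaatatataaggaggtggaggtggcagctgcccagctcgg
Cdkn3, chr14:46760291-46760590, plus strand: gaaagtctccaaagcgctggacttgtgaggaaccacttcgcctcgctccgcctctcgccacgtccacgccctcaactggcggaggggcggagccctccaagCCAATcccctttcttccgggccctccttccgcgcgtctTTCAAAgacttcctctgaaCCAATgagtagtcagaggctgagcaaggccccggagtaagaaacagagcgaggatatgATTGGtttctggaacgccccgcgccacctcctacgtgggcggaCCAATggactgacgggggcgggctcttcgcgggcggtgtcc
Ccnb2, chr9:70421505-70421804, minus strand: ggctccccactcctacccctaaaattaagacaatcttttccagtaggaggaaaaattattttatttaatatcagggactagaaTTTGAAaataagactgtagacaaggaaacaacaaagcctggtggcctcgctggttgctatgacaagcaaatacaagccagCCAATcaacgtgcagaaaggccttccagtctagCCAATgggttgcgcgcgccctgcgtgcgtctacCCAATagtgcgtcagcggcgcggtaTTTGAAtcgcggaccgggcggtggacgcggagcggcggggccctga
E2f2, chr4:136180532-136180831, plus strand: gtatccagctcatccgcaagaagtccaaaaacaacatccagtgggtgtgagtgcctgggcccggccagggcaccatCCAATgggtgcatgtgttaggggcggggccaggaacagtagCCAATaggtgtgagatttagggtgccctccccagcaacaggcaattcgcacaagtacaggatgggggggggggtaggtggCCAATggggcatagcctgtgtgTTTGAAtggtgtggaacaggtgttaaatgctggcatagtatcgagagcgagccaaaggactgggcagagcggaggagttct
Cdk1, chr10:69352863-69353162, minus strand: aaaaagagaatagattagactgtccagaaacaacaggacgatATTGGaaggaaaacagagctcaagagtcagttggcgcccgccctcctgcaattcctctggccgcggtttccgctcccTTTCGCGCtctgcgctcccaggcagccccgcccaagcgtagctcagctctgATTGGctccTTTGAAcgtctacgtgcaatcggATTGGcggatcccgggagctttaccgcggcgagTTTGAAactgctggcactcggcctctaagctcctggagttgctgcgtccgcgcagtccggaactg

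Cdk1 held a pair of cell cycle homology regions, whose first bases lay at -71 and -15 from the start, an E2F match and 3 CCAAT boxes. Ccnb2 held 3 CCAAT boxes in the same orientation, at -87, -54 and -21 from the start. Cdc25b held 1 CCAAT box and neither of the other elements. A gene with several windows is counted where any of them holds the match. Of the 22 members that rose and have a window, 9 (40.9%) held a cell cycle homology region, 7 (31.8%) an E2F match and 15 (68.2%) a CCAAT box. Among 9725 genes tested that have a window the shares were 22.7%, 4.79% and 43.2%. A cell cycle homology region together with a CCAAT box occurred in 8 of the 22 (36.4%) and in 9.40% of those 9725 genes. Of the 7 members with a window that were not called, 3 held a cell cycle homology region, 2 an E2F match and 4 a CCAAT box. Of the 3 that fell, 1 held a cell cycle homology region, 0 an E2F match and 2 a CCAAT box. In the windows plotted 0 pairs of matches overlapped, and a match is a description of the sequence, not evidence of binding.

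**Figure D3:**
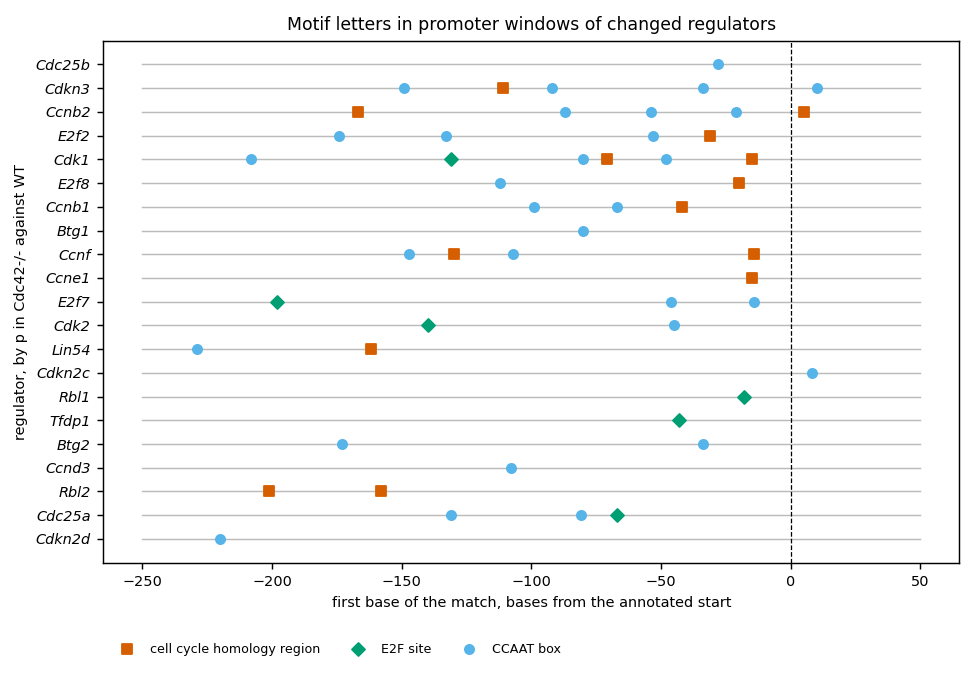
Position of each match in bases from the annotated start (horizontal; dashed line at 0) in 1 window for each called regulator that holds a match (for genes with several windows, the one with most matches), ordered by p. The E2f2 window drawn lies inside the gene, at an internal start. Squares are cell cycle homology regions, diamonds E2F sites and circles CCAAT boxes; in Ccnb1, Ccnb2, Ccne1, Ccnf, Cdk1, E2f2 and E2f8 a square lies within 50 bases of the start.

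Among the D cyclins, which answer growth signals, Ccnd2 and Ccnd3 were abundant in WT. Ccnd2 was at 143 and 144 RPKM in WT, at 134 and 143 in Cdc42+/- and at 174 and 116 in Cdc42-/-. The Cdc42-/- libraries lay on either side of the others, with a log2 fold change of -0.01 (SE 0.19, adjusted p = 0.973). Its direction turned with the Cdc42-/- library left out: without replicate 1 limma called it lower than in WT (-0.30, adjusted p = 0.0298), and without replicate 2 higher than in Cdc42+/- (0.32, adjusted p = 0.0439). Ccnd3 was at 47.6 and 49.6 RPKM in WT, at 50.6 and 59.2 in Cdc42+/- and at 80.8 and 71.6 in Cdc42-/-. Its 3 genotypes did not overlap, and it rose by 0.64 on the log2 scale in Cdc42-/- (SE 0.12, adjusted p = 0.0266). Ccnd1 stayed between 0.961 and 3.23 RPKM, with overlapping genotypes.

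The E, A, B and F cyclins, which act from the onset of DNA synthesis to mitosis, all rose in Cdc42-/- (6 of 6). Ccna2, cyclin A2, was at 2.46 and 3.16 RPKM in WT, at 13.8 and 11.7 in Cdc42+/- and at 53.8 and 80.5 in Cdc42-/-. The 3 genotypes stood in steps without overlap, and mean Ccna2 in Cdc42-/- was 23.9 times that in WT (log2 fold change 4.14, SE 0.22, adjusted p = 0.00144). Ccnb1, cyclin B1, was at 2.98 and 1.72 RPKM in WT, at 11.3 and 7.52 in Cdc42+/- and at 32.4 and 56.2 in Cdc42-/-. It also rose stepwise without overlap (log2 fold change 3.73, SE 0.34, adjusted p = 0.00253). Ccnb2 went from 3.06 and 5.23 RPKM in WT through 13.4 and 12.1 RPKM in Cdc42+/- to 51.5 and 67.0 RPKM in Cdc42-/-. Its log2 fold change in Cdc42-/- against WT was 3.57 (SE 0.24, adjusted p = 0.00144). Processed copies of Ccnb1, Ccnb2 and Ccnd3 are annotated, and how reads that match both were counted is not given in the sources used here.

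Ccnf, whose cyclin F protein is the substrate-binding part of a ubiquitin ligase, was at 2.09 and 0.98 RPKM in WT, at 4.39 and 3.93 in Cdc42+/- and at 13.6 and 21.2 in Cdc42-/-. Ccne1, the E cyclin that pairs with Cdk2 at the start of DNA synthesis, was at 5.88 and 2.93 RPKM in WT, at 7.59 and 6.38 in Cdc42+/- and at 28.0 and 26.6 in Cdc42-/-. Both rose in Cdc42-/- against WT, Ccnf by 2.86 (adjusted p = 0.00385) and Ccne1 by 2.44 (adjusted p = 0.00451). Ccne2 remained low, from 0.683 RPKM in WT to at most 5.38 RPKM in Cdc42-/-, and rose by 1.56 (adjusted p = 0.0262). Its log2 fold change lay between 1.21 and 2.46 over the 14 alternatives. The balance between early and later cyclins is given as a description, with no test. D cyclins made up 91.8% and 93.0% of the summed RPKM of D, E, A, B and F cyclins in the WT pair, 78.3% and 82.8% in the Cdc42+/- pair and 58.4% and 42.7% in the Cdc42-/- pair. The shares of the 3 genotypes did not overlap. The summed D cyclins themselves were at 191 and 196 RPKM in WT and at 256 and 191 RPKM in Cdc42-/-, which overlap. The G cyclins, Ccng1 and Ccng2, which are no classical CDK activators and are linked to p53 and to quiescence, were not called by limma in the fit of all 6 libraries. Ccng1 was at 50.8 and 48.9 RPKM in WT, at 63.9 and 62.3 in Cdc42+/- and at 43.0 and 56.3 in Cdc42-/-. Ccng2 was between 32.2 and 44.6 RPKM. For both genes the Cdc42+/- libraries were the highest, without overlap. Without Cdc42-/- replicate 2, Ccng1 was called in Cdc42-/- against Cdc42+/- (adjusted p = 0.0107).

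**Figure D4:**
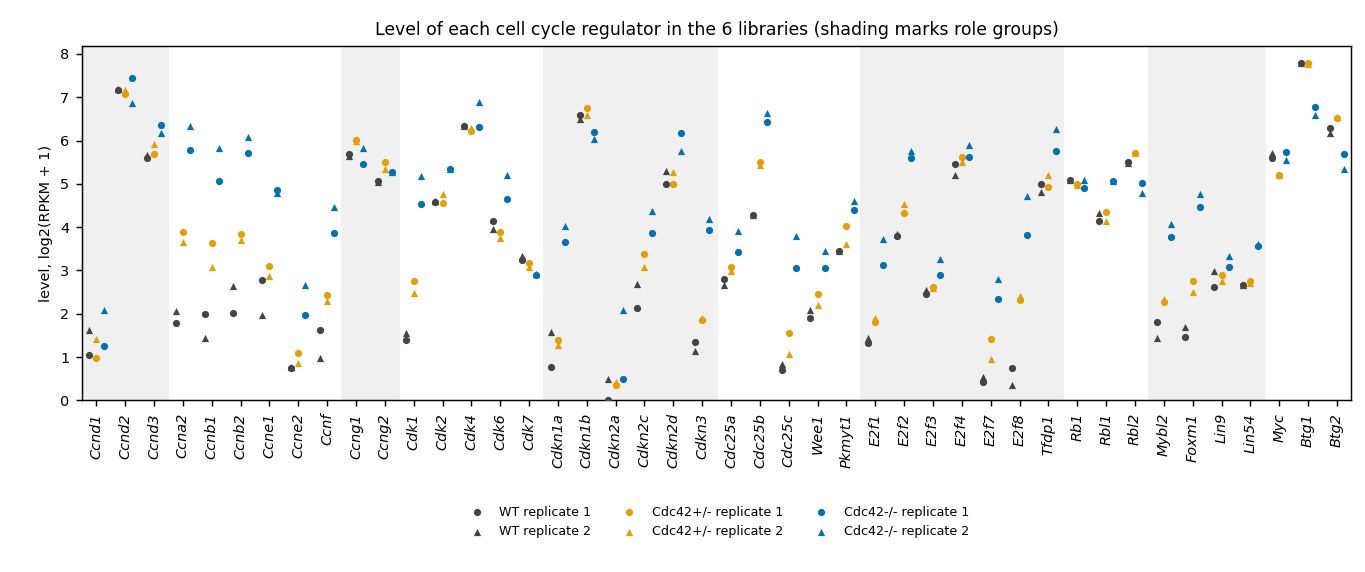
Level of each of the 44 regulators in log2(RPKM + 1), 1 point per library, with shading that marks the 10 role groups. Ccna2, Ccnb1, Ccnb2, Cdk1 and Foxm1 show separate steps from WT to Cdc42+/- to Cdc42-/-, while Rb1 lies between 28.9 and 33.2 RPKM in all 6 libraries.

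Of 5 kinases, 3 rose in Cdc42-/-: Cdk1, Cdk2 and Cdk6. Cdk1, the mitotic kinase, was at 1.63 and 1.96 RPKM in WT, at 5.76 and 4.58 in Cdc42+/- and at 22.0 and 35.5 in Cdc42-/-. Its genotypes did not overlap, and its log2 fold change in Cdc42-/- against WT was 3.38 (SE 0.25, adjusted p = 0.00182). Cdk2, the kinase of E and A cyclins, was at 22.9 and 23.3 RPKM in WT, at 22.8 and 26.1 in Cdc42+/- and at 39.4 and 39.5 in Cdc42-/-. Only the Cdc42-/- libraries stood apart for Cdk2, by a log2 fold change of 0.75 (SE 0.11, adjusted p = 0.0123). The ratio of Cdk2 to Cdk1 RPKM was 14.1 and 11.9 in the WT pair, 3.95 and 5.70 in the Cdc42+/- pair and 1.79 and 1.11 in the Cdc42-/- pair. Cdk6, a partner of D cyclins, was at 16.7 and 14.5 RPKM in WT, at 13.8 and 12.5 in Cdc42+/- and at 23.97 and 36.0 in Cdc42-/-. Its call was near the threshold (log2 fold change 0.88, adjusted p = 0.0455). Cdk4, the other D cyclin kinase, was between 73.8 and 79.8 RPKM in 5 libraries and 118 RPKM in Cdc42-/- replicate 2 (adjusted p = 0.37). Cdk7, which activates other CDKs and is part of the transcription factor TFIIH, was the 1 member in falling steps, from 8.39 and 9.13 RPKM in WT through 7.96 and 7.44 RPKM to 6.46 and 6.51 RPKM in Cdc42-/-. Its adjusted p was 0.14.

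Of 6 genes in the inhibitor group, 4 rose in Cdc42-/- against WT and 0 fell, while 1 fell against Cdc42+/-. Cdkn1a (p21), which inhibits CDKs and is a known p53 target, was at 0.71 and 2.01 RPKM in WT, at 1.63 and 1.44 in Cdc42+/- and at 11.6 and 15.3 in Cdc42-/-. The WT and Cdc42+/- libraries overlapped and both Cdc42-/- libraries lay above them, with a log2 fold change against WT of 2.66 (SE 0.31, adjusted p = 0.00539). Cdkn1b (p27), the inhibitor of resting T cells, was at 96.1 and 89.7 RPKM in WT, at 106 and 94.8 in Cdc42+/- and at 72.5 and 64.1 in Cdc42-/-. Both Cdc42-/- libraries were below the others, but the adjusted p against WT was 0.0623 (log2 fold change -0.44, SE 0.12), and 0.0417 against Cdc42+/- (log2 fold change -0.55). Cdkn1b was still the higher of the pair in every library: the ratio of Cdkn1b to Cdkn1a RPKM was 136 and 44.7 in the WT pair, 65.0 and 66.0 in the Cdc42+/- pair and 6.25 and 4.20 in the Cdc42-/- pair.

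Of the INK4 inhibitors, which block Cdk4 and Cdk6, Cdkn2c (p18) and Cdkn2d (p19) rose. Cdkn2c was at 3.41 and 5.42 RPKM in WT, at 9.42 and 7.51 in Cdc42+/- and at 13.6 and 19.9 in Cdc42-/-, without overlap (log2 fold change 1.71 in Cdc42-/- against WT, adjusted p = 0.0129). Cdkn2d was at 30.8 and 38.2 RPKM in WT, at 31.2 and 37.8 in Cdc42+/- and at 71.6 and 53.3 in Cdc42-/- (log2 fold change 0.83, adjusted p = 0.0434). Cdkn2d thus separated only the Cdc42-/- libraries, and its call was lost under several alternatives, among them upper-quartile scaling. Cdkn2a, the locus of p16 and ARF, had at most 7 reads in 5 libraries and 34 reads in Cdc42-/- replicate 2, and passed the filter through that library (adjusted p = 0.258). Cdkn3, a phosphatase that acts on CDKs and is itself a gene of cycling cells, was at 1.54 and 1.21 RPKM in WT, at 2.61 and 2.76 in Cdc42+/- and at 14.4 and 17.3 in Cdc42-/-. Its log2 fold change was 2.82 (SE 0.19, adjusted p = 0.00144), on as few as 8 reads in WT replicate 2.

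All 3 CDC25 phosphatases and both kinases that oppose them rose in Cdc42-/- (5 of 5). Cdc25b, which starts the activation of Cdk1 before mitosis, was at 18.5 and 18.5 RPKM in WT, at 44.7 and 42.2 in Cdc42+/- and at 85.4 and 98.1 in Cdc42-/-. The libraries of each genotype lay close together and the steps between genotypes were wide, with a log2 fold change against WT of 2.25 (SE 0.11, adjusted p = 0.00144). Cdc25c, which acts at mitosis, was at 0.614 and 0.781 RPKM in WT, at 1.95 and 1.10 in Cdc42+/- and at 7.31 and 12.9 in Cdc42-/- (log2 fold change 2.66, adjusted p = 0.00578). Cdc25a, which acts earlier in the cycle, was at 5.96 and 5.31 RPKM in WT, at 7.46 and 6.91 in Cdc42+/- and at 9.72 and 13.9 in Cdc42-/- (log2 fold change 0.93, adjusted p = 0.0355). The opposing kinases rose too, Wee1 by 1.26 (adjusted p = 0.0173) and Pkmyt1 by 1.05 (adjusted p = 0.0166). Wee1 ranged from 2.72 RPKM in WT to 9.86 RPKM in Cdc42-/-, and Pkmyt1 from 9.91 to 23.5 RPKM, each in steps without overlap. The ratio of Cdc25b to Wee1 RPKM was 6.80 and 5.65 in the WT pair, 9.98 and 11.7 in the Cdc42+/- pair and 11.6 and 9.95 in the Cdc42-/- pair. For this ratio both knockout genotypes lay above WT and overlapped each other.

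Of 7 E2F and DP genes, 5 rose in Cdc42-/- and 2 did not pass the test. E2f1 and E2f2 encode activating factors. E2f1 was at 1.52 and 1.70 RPKM in WT, at 2.52 and 2.72 in Cdc42+/- and at 7.67 and 12.3 in Cdc42-/- (log2 fold change 2.04, SE 0.25, adjusted p = 0.00592). E2f2 was the more abundant, at 12.9 and 13.4 RPKM in WT, at 19.1 and 22.1 in Cdc42+/- and at 47.6 and 53.6 in Cdc42-/- (log2 fold change 1.87, SE 0.13, adjusted p = 0.00144). Both rose in steps without overlap. The atypical E2f7 and E2f8, which repress E2F targets without a DP partner, were near the bottom of the set in WT. E2f8 was at 0.681 and 0.285 RPKM in WT, at 4.03 and 4.31 in Cdc42+/- and at 13.0 and 25.3 in Cdc42-/-. Its log2 fold change in Cdc42-/- against WT was 3.71 (SE 0.33, adjusted p = 0.00246), on 40 and 9 reads in WT, and lay between 3.25 and 5.12 over the 14 alternatives. E2f7 was at 0.333 and 0.448 RPKM in WT, at 1.69 and 0.933 in Cdc42+/- and at 4.03 and 6.04 in Cdc42-/- (log2 fold change 2.10, adjusted p = 0.00891). Its log2 fold change lay between 1.86 and 3.69 over the 14 alternatives.

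E2f3 and E2f4 did not pass in the fit of all 6 libraries, and passed without Cdc42-/- replicate 1 (adjusted p = 0.0219 and 0.0182). E2f4, the E2F of repressor complexes in resting cells, was at 43.1 and 35.8 RPKM in WT, at 48.3 and 44.2 in Cdc42+/- and at 48.6 and 58.3 in Cdc42-/- (log2 fold change 0.43, SE 0.14, adjusted p = 0.112). E2f3, another activator, was between 4.45 and 8.54 RPKM (log2 fold change 0.58, SE 0.18, adjusted p = 0.0993). Tfdp1, the DP1 partner of the typical E2Fs, was at 31.0 and 27.1 RPKM in WT, at 29.7 and 36.1 in Cdc42+/- and at 52.8 and 76.0 in Cdc42-/-, where it rose by 1.10 (adjusted p = 0.0212).

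The 3 pocket proteins went in different directions. Rb1 was between 28.9 and 33.2 RPKM in all 6 libraries (log2 fold change -0.09, SE 0.11, adjusted p = 0.635). Rbl1 (p107), the pocket protein of cycling cells, was at 16.8 and 19.2 RPKM in WT, at 19.6 and 16.6 in Cdc42+/- and at 32.5 and 32.4 in Cdc42-/- (log2 fold change 0.82, SE 0.13, adjusted p = 0.0147). Rbl2 (p130), the pocket protein of resting cells, was at 44.5 and 43.5 RPKM in WT, at 51.8 and 51.6 in Cdc42+/- and at 31.6 and 26.7 in Cdc42-/- (log2 fold change -0.58, SE 0.12, adjusted p = 0.0293). The summed level of the 3 genes was nearly level, between 92.3 and 103 RPKM in all libraries, while its make-up shifted. The ratio of Rbl2 to Rbl1 RPKM was 2.65 and 2.27 in the WT pair, 2.65 and 3.10 in the Cdc42+/- pair and 0.972 and 0.824 in the Cdc42-/- pair. In both Cdc42-/- libraries Rbl1 was the higher of the pair, and in the other 4 Rbl2 was.

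Mybl2 (B-Myb) and Foxm1, which turn MuvB into an activator of mitotic genes, rose in Cdc42-/-, as did 1 of the 2 MuvB subunits in the set. Foxm1 was at 1.76 and 2.22 RPKM in WT, at 5.75 and 4.70 in Cdc42+/- and at 21.01 and 26.3 in Cdc42-/- (log2 fold change 3.04, SE 0.19, adjusted p = 0.00144). Mybl2 was at 2.50 and 1.74 RPKM in WT, at 3.84 and 4.04 in Cdc42+/- and at 12.7 and 15.9 in Cdc42-/- (log2 fold change 2.30, SE 0.20, adjusted p = 0.00248). Both stood in steps without overlap. Lin54, the MuvB subunit that binds the cell cycle homology region, was at 5.32 and 5.38 RPKM in WT and 10.9 and 11.3 RPKM in Cdc42-/- (log2 fold change 0.93, adjusted p = 0.0127). Lin9, a MuvB scaffold subunit, was between 5.10 and 9.15 RPKM (log2 fold change 0.41, adjusted p = 0.223).

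Btg1 and Btg2, antiproliferative genes that are high in resting lymphocytes, fell in Cdc42-/-. Btg1 had the highest level of the 44 in WT, at 222 and 219 RPKM, lay at 220 and 217 in Cdc42+/- and lay at 109 and 95.8 in Cdc42-/-. WT and Cdc42+/- lay together and both Cdc42-/- libraries lay below them, with a log2 fold change against WT of -1.10 (SE 0.11, adjusted p = 0.0031). Btg2 was at 77.6 and 71.6 RPKM in WT, at 91.2 and 92.1 in Cdc42+/- and at 50.3 and 39.8 in Cdc42-/- (log2 fold change -0.72, SE 0.13, adjusted p = 0.0234). Myc, a transcription factor that promotes growth and entry into the cycle, was at 47.7 and 51.4 RPKM in WT, at 35.9 and 35.8 in Cdc42+/- and at 52.6 and 46.1 in Cdc42-/-. Its Cdc42-/- libraries overlapped WT (adjusted p = 0.968), and its Cdc42+/- libraries were the lowest.

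Heterozygous libraries were compared with WT in the same fit. None of the 44 members passed the adjusted threshold in limma, nor did any of the 12233 genes (0% higher and 0% lower). At an unadjusted p under 0.05 there were 15 members and 529 genes, and the smallest adjusted p among the members was 0.206, that of Cdc25b. On the log2(RPKM + 1) scale the largest log2 fold changes were those of Ccna2 (1.86, SE 0.22), E2f8 (1.81, SE 0.33), Ccnb1 (1.64, SE 0.34) and Ccnb2 (1.45, SE 0.24). That order depends on the pseudocount: with 0.1 RPKM, E2f8 was at 2.96 and Ccna2 at 2.15. Over the alternatives E2f8 lay between 1.62 and 3.03. The median was 0.26 for the members and 0.03 for all genes, and the Cdc42+/- libraries lay above WT without overlap for 28 members and below it for 5, against 26.2% and 17% of all genes. The count of calls moved with the fit, for the members and for all genes. Ccna2, Cdc25b and E2f8 were called when only these 2 genotypes were fitted, beside 60 of all genes. Library weights gave 7 members and 88 genes, and voom on recovered reads 0 members (14 at an unadjusted p under 0.05) and 1 gene. Without Cdc42-/- replicate 1 or replicate 2 there were 4 and 3 members called, beside 76 and 66 genes. The sex-linked genes differ between the same libraries, and so do cell type markers. Both Cdc42+/- libraries lay above both WT libraries for 3 of 4 plasma cell markers (Jchain, Mzb1 and Prdm1) and 4 of 7 myeloid markers (Lyz2, Cd68, Csf1r and Itgam). Prdm1 did not follow Jchain in Cdc42-/-, at 15.2 and 15.8 RPKM beside 0.946 and 123 RPKM. The Cdc42+/- pair also lay above WT for 2 of 5 B cell, 2 of 5 erythroid and 1 of 1 NK markers, and below it for 1 of 2 CD8 markers. Of 6 Treg and CD4 markers, 2 lay below WT (Foxp3 and Il2ra) and 1 above (Cd4). Lyz2 was at 0.119 and 2.65 RPKM in WT and at 5.30 and 7.28 RPKM in Cdc42+/-. The part of sex and of cell make-up in the values of the members was not tested.

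The authors' deposited table, whose test is not named, called 13 members at an adjusted p under 0.05 in Cdc42+/- against WT, 12 higher and 1 lower, where it called 1.72% of all genes higher and 0.561% lower. The 12 were Ccna2, Ccnb1, Ccnb2, Ccnf, Ccng1, Cdk1, Cdkn2c, Cdc25b, E2f2, E2f7, E2f8 and Foxm1. For Cdc25b, the authors' deposited table gave a log2 fold change of 1.20 with an adjusted p of 1.55e-27. The 1 lower was Myc, with -0.50 and an adjusted p of 7.86e-05 in the authors' deposited table. In Cdc42-/- against WT the authors' deposited table called 26 members higher and 2 lower (Btg1 and Btg2), where it called 6% of all genes higher and 2.66% lower.

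**Figure D5:**
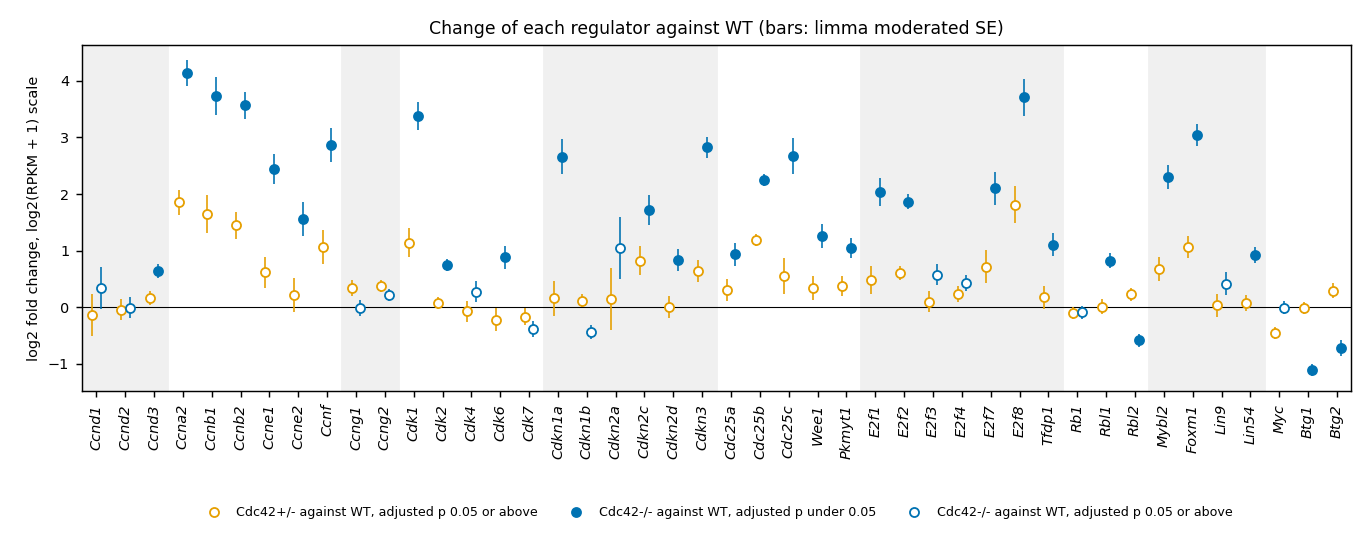
Log2 fold change against WT on the log2(RPKM + 1) scale for each regulator, with limma's moderated standard error as bars; orange is Cdc42+/-, blue is Cdc42-/-, and filled points had an adjusted p under 0.05. No orange point is filled, 31 blue points are, and Btg1, Btg2 and Rbl2 are the filled points under 0.

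Both contrasts share the WT libraries, so each is given by its own values. The order of the libraries themselves was WT below Cdc42+/- below Cdc42-/-, without overlap, for 24 members (54.5%), against 8.25% of all genes tested. The 24 were all cyclins of the E, A, B and F group with Ccnd3, then Cdk1, Cdkn2c, Cdkn3, the CDC25 genes, Wee1, Pkmyt1, the E2F genes, Mybl2, Foxm1 and Lin54. The opposite order held for 1 member (2.27%), Cdk7, against 5.11% of all genes.

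Against Cdc42+/-, the Cdc42-/- libraries had 22 members higher (50%) and 4 lower (9.09%), compared with 4.68% and 3.54% of all genes tested. The median log2 fold change was 0.88 for the members and -0.01 for all genes. The 4 that fell were Cdkn1b, Rbl2, Btg1 and Btg2. Ccna2 rose by 2.28 (SE 0.22, adjusted p = 0.00822), Cdk1 by 2.24 (SE 0.25, adjusted p = 0.01) and Cdkn1a by 2.50 (SE 0.31, adjusted p = 0.0117). Btg1 was at -1.09 (SE 0.11, adjusted p = 0.00811) and Rbl2 at -0.81 (SE 0.12, adjusted p = 0.0152). For Rbl2 and Btg2 the Cdc42+/- libraries lay above WT, and the Cdc42-/- libraries below both. This comparison rested on having both heterozygous libraries. Without Cdc42+/- replicate 1 or replicate 2, limma called 0 members, with 31 and 30 at an unadjusted p under 0.05. Over all genes it called 0 in both, with 1733 and 1638 at an unadjusted p under 0.05. With only the 2 genotypes fitted it called 12 members and 276 genes, and voom on recovered reads called 28 members and 1179 genes.

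Beyond the 44, 3 further lists cover the same pathway, to be read beside the 6.86% of all genes called higher, the 4.57% called lower and the all-gene median of 0.01 in Cdc42-/- against WT. Of 15 E2F target genes, which encode replication and nucleotide synthesis proteins, all were tested and 14 rose in Cdc42-/- against WT, with a median log2 fold change of 1.43. Rrm2, a subunit of ribonucleotide reductase, went from a mean of 8.70 to 104 RPKM (log2 fold change 3.40, adjusted p = 0.00144), and Mcm3, part of the replicative helicase, from 23.5 to 82.2 RPKM (1.75, adjusted p = 0.00209). Of 30 other cell cycle control genes 27 were tested, 13 rose and 1 fell, with a median of 0.98. Cdc20, an activator of the anaphase-promoting complex, rose by 3.62 (adjusted p = 0.00182), and the mitotic kinase gene Plk1 by 3.14 (adjusted p = 0.00182). The 1 that fell was Mxd4, a Max partner that opposes Myc, from a mean of 86.4 to 35.5 RPKM (log2 fold change -1.27, adjusted p = 0.00894), named after its value was seen. In that family Mxd3 rose by 2.81 (adjusted p = 0.00182).

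Most p53 targets, the class to which Cdkn1a also belongs, passed no test. Of 12 tested, 0 rose and 2 fell in Cdc42-/- against WT by limma, with 5 at an unadjusted p under 0.05 and a median log2 fold change of 0.19. Of all 12233 genes, 3589 were at an unadjusted p under 0.05, 6.86% were called higher and 4.57% lower. Sesn1, a stress-induced regulator of growth signalling, fell from a mean of 50.6 to 14.5 RPKM (log2 fold change -1.78, adjusted p = 0.00821), and Trp53inp1 from 100.4 to 59.3 RPKM (-0.76, adjusted p = 0.024). Mdm2, the ubiquitin ligase that restrains p53, was at a mean of 29.2 RPKM in WT and 39.4 RPKM in Cdc42-/- (0.42, adjusted p = 0.0509). In Cdc42+/- against WT none of the 3 lists had a call in limma, with 4 E2F targets, 9 other control genes and 0 p53 targets at an unadjusted p under 0.05, beside 529 of all 12233 genes.

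Some reads of these genes may belong to a neighbour. In the GENCODE M21 annotation 15 of the 44 share exon bases with another gene, most on the opposite strand, and whether counting used strand is not given in the sources used here. The shared part was 31.2% of exon bases for Cdk4 (with Tspan31), 21.9% for Ccnd1, 16.8% for Rbl2 (with Aktip), 15.7% for E2f8 and 10.4% for Ccna2 (with Exosc9). Reads from such pairs cannot be told apart.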

How the data were processed

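RNA-seq libraries of sorted splenic Treg cells (2 per genotype) were grouped by their titles. The submitters' processing notes name TopHat and mm10. The counting tool, annotation and strand setting are not given in the sources used here. The authors deposited RPKM per library in 2 tables. The unit was worked out from the deposited values, since dividing by what 1 read is worth gave whole reads for 100% of values (within 0.01). The authors' deposited tables also hold log2 fold changes, p-values and adjusted p-values from a test that is not named, and a mean signal per group, by the authors.

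The design assumed RPKM, so limma 3.58.1 in R 4.3.3 (lmFit, eBayes with a mean-variance trend, two-sided) was run on log2(RPKM + 1). Genes averaging under 0.5 RPKM were left out, the 6 libraries entered 1 fit, and p-values were adjusted over 12233 genes (Benjamini-Hochberg, threshold 0.05). SE is the moderated standard error. Depth was between 8556576 and 17796100 reads, and genes with few reads are the least precise. The replicates differed by more than counting noise (chi-square per gene between 6.53 and 47.3). Alternatives changed the pseudocount, filter, scaling, libraries fitted, weights or model (voom on recovered reads), added the replicate number, or left out 1 library. The fit was tested on simulated data with the same setting for spread in every library. That test therefore does not cover the uneven spread between these replicates. All members may be named. Up to 4 genes per further list were eligible by smallest p. The members, lists and motifs were chosen with earlier results of these data known. Sequences are RefSeq's for GRCm38.p6, and all 44 members matched by gene ID. Members with no window are Ccnd1, Ccnd2, Ccne2, Ccna2, Cdc25c, Wee1, Pkmyt1, E2f4, Rb1, Lin9, Foxm1 and Myc.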

Additional observations from a re-analysis of the deposited data

How the results depend on the processing

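In Cdc42+/- against WT the calls went from 0 to 3 members and 60 genes when only the 2 genotypes were fitted, and to 7 members and 88 genes with array weights, while voom called 1 gene. Leaving out 1 library gave between 0 and 4 members and between 0 and 76 genes. In Cdc42-/- against WT, 1398 genes became 536 with only the 2 genotypes and 885 with array weights. Leaving out 1 library gave between 14 and 37 members and between 259 and 4433 genes. In Cdc42-/- against Cdc42+/-, 26 members and 1006 genes became 12 and 276 with only the 2 genotypes, and leaving out 1 library gave between 0 and 36 members and between 0 and 4263 genes. Where an arm kept 1 library, that library was assumed to vary like the others, and the cause of each shift was not tested.

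No called member changed sign under an alternative. The opposite sign occurred 27 times, for 15 values that were not called in the fit of all 6 libraries. Of these, Ccnd2 in Cdc42-/- against both other genotypes and Cdk4 in Cdc42-/- against WT were called under 1 alternative each. Under upper-quartile scaling Cdkn2d (-0.028) and Rbl1 (-0.022) in Cdc42+/- against WT and Ccnd2 (-0.016) and Rb1 (-0.038) in Cdc42-/- against Cdc42+/- were below 0. Over the fits that left out 1 library, the log2 fold change in Cdc42+/- against WT spanned -0.42 to 0.15 for Ccnd1, -0.023 to 0.17 for Cdk2, -0.25 to 0.57 for Cdkn1a, -0.10 to 0.40 for Cdkn2a, -0.15 to 0.15 for Cdkn2d, -0.16 to 0.22 for Lin9 and -0.10 to 0.12 for Rbl1. In Cdc42-/- against WT it spanned -0.076 to 0.75 for Ccnd1, -0.30 to 0.27 for Ccnd2, -0.21 to 0.17 for Ccng1, -0.012 to 0.56 for Cdk4, -0.10 to 0.085 for Myc and -0.19 to 0.0091 for Rb1. In Cdc42-/- against Cdc42+/- it spanned -0.25 to 0.32 for Ccnd2 and -0.085 to 0.11 for Rb1.

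The labels give no batch and no pairing by replicate number. The deviations between replicates correlated at 0.02 (WT with Cdc42+/-), 0.20 (WT with Cdc42-/-) and -0.03 (Cdc42+/- with Cdc42-/-). With 2 libraries per genotype these values cannot settle whether libraries of the same replicate number were handled together. With the replicate number as a block the members called were 0, 28 and 24 in the 3 comparisons, and the genes called 0, 1144 and 809. A mean of at least 1 RPKM leaves out Cdkn2a. Depth limits the genes with few WT reads, such as Cdkn3 (19 and 8), Cdc25c (19 and 13) and E2f8 (40 and 9).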

Other observations

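The order of the 44 genes by mean RPKM changed between WT and Cdc42-/-. Ccna2 was at place 30 of 44 in WT and at place 7 in Cdc42-/-, Ccnb2 at 28 and 10, Cdk1 at 34 and 23, and Cdc25b at 16 and 4. Going the other way, Cdk7 was at place 21 and 40, Rbl2 at 9 and 22, and Btg2 at 5 and 15. Btg1 led in WT. In Cdc42-/- the order at the top differed between the libraries: Ccnd2, at 173.7 and 116.3 RPKM, was the highest in replicate 1, and Cdk4, at 78.9 and 117.5 RPKM, in replicate 2. In 33 of the 44 genes the level in Cdc42-/- replicate 2 was above that in replicate 1. Among the exceptions were Ccnd2, Ccnd3, Ccne1, Cdkn2d and Myc. These are values of 2 libraries per genotype and carry no test.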
